A study of Mus musculus with 15 samples.

Results

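RNA of tumor-derived endothelial cells (TDECs) on day 5 of differentiation was compared with RNA of 005, the mouse glioma stem cell line they were grown from, across all genes of the count table. The comparison used 6 of the 15 libraries of the series, 3 of TDECs and 3 of 005, chosen by the names of the table's columns. All cells carried the strain label C57BL/6, and 005 cells expressed GFP. TDECs were 005 cells kept in EGM-2 BulletKit, an endothelial growth medium, at 1% oxygen. The 005 cells were kept in a stem cell maintenance medium without serum, and no oxygen level was given for them. Medium, oxygen and time therefore all differed between the groups, and their parts in the differences below cannot be told apart. The TDEC sample labels carry no day, and the treatment text and the paper give 5 days. The remaining libraries came from TDECs on day 2, from TDECs given sertraline and from mouse brain microvascular endothelial cells (MBMECs), which serve below only as a level for endothelial markers.

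The TDEC libraries held 11283680 to 12455832 counts and the 005 libraries 12732819 to 12972933. Counts were more concentrated in TDECs, where 1060 to 1067 genes held the upper 50% of the counts, against 1357 to 1372 genes in 005 cells. Replicate 3 of 005 stood apart from replicates 1 and 2, the chi-square per gene being 11.2 to 11.4 against them, while it was 2.36 to 2.64 among TDEC libraries and 2.15 between 005 replicates 1 and 2. In that library 196 genes were over 2-fold above the mean of the other 005 libraries and 122 were over 2-fold below it. The paper calls the TDEC libraries biological replicates, and for the stem cell libraries the labels do not say whether they were separate cultures, so the p-values may in part measure technical spread. The libraries are of bulk RNA, in which fewer cells of a type and less RNA per cell cannot be told apart.

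Glioma stem cells share transcription factors and growth behaviour with neural stem cells and can take on features of other lineages in culture. Endothelial cells line blood vessels, are joined by cadherin and claudin contacts, answer vascular endothelial growth factor (VEGF) through receptor kinases, and rest on a basement membrane of laminins and type IV collagens. Cells at low oxygen stabilise the hypoxia-inducible factors (HIFs), which raise genes for glucose uptake, glycolysis and VEGF. These programs are taken in turn below.

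Expression was higher in TDECs for 2043 (13.1%) and lower for 1633 (10.4%) of the 15648 genes that could be tested against 005 cells, at an adjusted p under 0.05 from edgeR's quasi-likelihood test with a fold change above 2. Without 005 replicate 3, 2286 genes were higher and 1741 lower. The fold change exceeded 4 in 689 of the higher and 539 of the lower genes, and it exceeded 16 in 110 and 107. A further 6555 genes passed the adjusted p with a smaller fold change, so that 10231 genes differed at any size. Of these, 5068 were higher and 5163 lower. The median log2 fold change over all genes tested was −0.01. Every count of list members given below is to be read beside the shares of 13.1% higher and 10.4% lower. In 10859 genes (69.4%) the TDEC and 005 libraries did not overlap, and this held for 3648 of the 3676 genes called. Values below are in CPM, counts scaled to a common library total after TMM normalization. CPM is not corrected for gene length, so levels are compared between groups and not between genes.

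**Figure D1:**
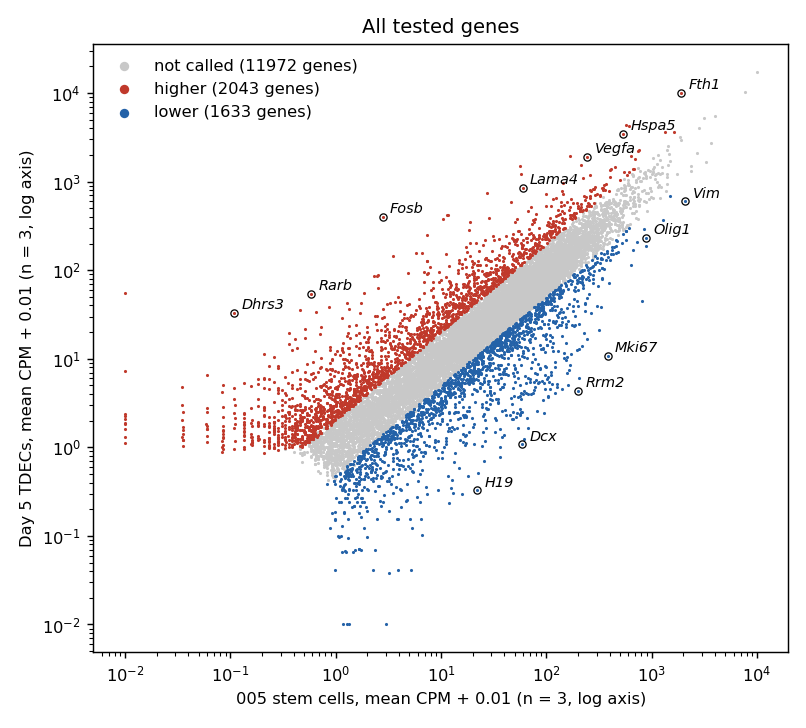
Mean CPM plus 0.01 in TDECs (vertical log axis) against mean CPM plus 0.01 in 005 cells (horizontal log axis) for the 15648 genes tested (n = 3 libraries each), 2043 called higher in red and 1633 called lower in blue. Dhrs3, Rarb and Fosb lie far above the diagonal, H19, Dcx and Rrm2 far below it, and Fth1 at the upper right.

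The largest rises included genes of the retinoic acid pathway, the AP-1 gene Fosb and genes for secreted or matrix proteins. Otog, which encodes otogelin, a glycoprotein of the acellular membranes of the inner ear, had 53.7, 51.7 and 58.8 CPM in TDECs and no count in any 005 library. Taking 3 counts over the 005 libraries as the floor, it was at least 735-fold higher. Dhrs3, a retinaldehyde reductase, stood at 33.0, 33.1 and 33.1 CPM in TDECs, against 0.148, 0.0754 and 0.0742 CPM in 005 cells (log2 fold change 8.24, SE 0.22, adjusted p = 2.0e-11). The AP-1 subunit gene Fosb had 393, 409.8 and 396 CPM in TDECs, against 2.00, 2.87 and 3.49 CPM in 005 cells (log2 fold change 7.16, SE 0.12, adjusted p = 1.4e-12). The ranking took only called genes with groups that did not overlap, so the gap between the groups was set by it. Within each of these genes the TDEC libraries lay close together. Next in size came Rarb, a retinoic acid receptor (6.55), Ace, the angiotensin-converting enzyme (6.29), Steap1, of a family of metalloreductases (5.78), and Sds, serine dehydratase (5.77). They were followed by Lcn2, which binds iron-carrying siderophores (5.67), Stbd1, a glycogen-binding protein (5.51), Lpin3, a phosphatidate phosphatase (5.42), and Soat2, which esterifies cholesterol (5.37). Atp2a3, a calcium pump of the endoplasmic reticulum (ER), Crispld2, a secreted protein, Lama1, a laminin chain, and Mt2, a metallothionein, had log2 fold changes of 5.36, 5.36, 5.23 and 5.20.

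The largest falls were led by an imprinted RNA and a neuronal gene and included many genes of cell division. H19, an imprinted non-coding RNA, had 0.186, 0.425 and 0.337 CPM in TDECs, against 20.4, 18.1 and 27.8 CPM in 005 cells (log2 fold change −6.07, SE 0.30, adjusted p = 3.9e-09). Dcx, which binds microtubules in migrating neuroblasts, had 1.02, 0.936 and 1.26 CPM in TDECs, against 57.8, 65.2 and 53.9 CPM in 005 cells (log2 fold change −5.76, SE 0.15, adjusted p = 2.0e-11). Groups that did not overlap were a condition of this ranking too. Others of the 15 largest falls act in replication or mitosis. Dscc1 acts in sister chromatid cohesion (−5.62), and Pif1 is a DNA helicase (−5.60). Spc24 is a kinetochore subunit (−5.58), and Rrm2 is the small subunit of ribonucleotide reductase (−5.52). Kif14, a mitotic kinesin, Pbk and Melk, mitotic kinases, E2f8, a repressor of E2F targets, and Mki67, which coats mitotic chromosomes, had log2 fold changes of −5.35, −5.27, −5.18, −5.18 and −5.15. Depdc1b (−5.71), Arhgef39 (−5.47), Capn6 (−5.43) and Ankle1 (−5.26) completed the 15 largest falls.

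Ranked by CPM instead, the 10 largest gains were in genes of several kinds, from ferritin and glycolysis to the mitochondrial genome and translation. Fth1, the heavy chain of the iron store ferritin, had 10235, 10171 and 10032 CPM in TDECs, against 1789.7, 1776 and 2132 CPM in 005 cells (log2 fold change 2.42, SE 0.07, adjusted p = 3.3e-11). Igfbp3, which binds insulin-like growth factors in the medium, had 4403, 4315 and 4329 CPM in TDECs, against 556, 565 and 579.6 CPM in 005 cells (log2 fold change 2.94, SE 0.05, adjusted p = 1.4e-12). The TDEC libraries lay within a narrow band far above the 005 libraries for both genes. Gpi1, a glycolytic enzyme, Hspa5, an ER chaperone, Tpt1, a translationally controlled protein, Malat1, a nuclear non-coding RNA, and Ero1l, an ER oxidase, were the other called genes among the 10 largest gains. Among these gains mt-Co1 (0.81), whose mean was 17488 CPM in TDECs and 9982 CPM in 005 cells, Eef1a1 (0.45) and Eef2 (0.73) stayed within the fold threshold.

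The largest losses of CPM included genes of the cytoskeleton and of division. Vim, the intermediate filament vimentin, had 629, 591 and 582 CPM in TDECs, against 2082, 2045 and 2142 CPM in 005 cells (log2 fold change −1.80, SE 0.05, adjusted p = 3.9e-11). The tubulin genes Tubb5 (−1.79) and Tuba1a (−2.24), the RNA-binding protein gene Hnrnpa2b1 (−1.13), the topoisomerase gene Top2a (−4.18) and the oligodendrocyte lineage factor Olig1 (−1.94) fell as well. Ckb, brain creatine kinase, averaged 1663 CPM in TDECs and 3308 CPM in 005 cells and missed the fold threshold at −0.99. It passed with library totals (−1.12), with DESeq2 (−1.0001) and with all genes of at least 1 count (−1.007). Ckb also passed without TDEC replicate 1 (−1.06), 005 replicate 1 (−1.03) or 005 replicate 2 (−1.05). Among the losses Actb (−0.85), Scd2 (−0.44) and Ccnd1 (−0.65) were also within the fold threshold. Tubulin and elongation factor genes have close paralogs, and how reads with several alignments were counted is not given in the sources used here.

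The paper describes TDECs as endothelial cells differentiated from 005, citing staining for CD31 and CD34 after 5 days and tube formation on Matrigel. It also reports blood vessel morphogenesis as the top term among genes raised over 005. Protein was not measured here. In RNA, many defining endothelial markers were at or near 0. Of 42 endothelial markers 21 had enough counts to be tested. Among them 6 (28.6%) were higher and 2 (9.52%) lower, against 13.1% and 10.4% of all genes tested. The median log2 fold change of the markers was −0.17. The sign of this median depended on the setting, with 0.16 without 005 replicate 3, 0.21 with all 15 libraries in the fit, 0.62 with a minimum count of 50, 0.58 with all genes of at least 1 count and 0.59 with DESeq2, so no direction is read from it. The summed level of the 42 markers ran from 404.4 to 427.4 CPM in TDECs and from 333.0 to 335.0 CPM in 005 cells. In every TDEC library 23 of the 42 markers were under 1 CPM. The claudin gene Cldn5, which seals endothelial contacts, the transcription factor genes Sox17 and Etv2, and Lyve1 and Mmrn1 had no count in the 6 libraries. Cdh5, the cadherin of endothelial contacts, had 0, 0.255 and 0 CPM in TDECs and 0, 0.0754 and 0 CPM in 005 cells, and was not tested. Set against MBMECs, whose levels come from TMM scaling over all 15 libraries and carry no test, 28 markers in TDECs and 31 in 005 cells were under 1% of the MBMEC level.

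Pecam1 encodes CD31, an adhesion protein of endothelial contacts that is widely used to stain vessels. It had 0.650, 0.851 and 0.757 CPM in TDECs, against 1.04, 1.51 and 1.71 CPM in 005 cells (log2 fold change −0.90, SE 0.35, adjusted p = 0.039), and so was not called. No TDEC library reached the lowest 005 library, and both groups were at or below 0.106% of the MBMEC level. Cd34, a sialomucin of endothelial and progenitor cells, had 0.557, 0.766 and 0.337 CPM in TDECs and 0.666, 1.21 and 0.964 CPM in 005 cells, and Tek, the angiopoietin receptor Tie2, had 0.557, 0.425 and 0.252 and 0, 0.377 and 0 CPM. The groups overlapped for both genes, and neither was tested. Vwf, the clotting factor stored in endothelial granules, had 1.30, 1.11 and 1.35 CPM in TDECs and 2.15, 2.49 and 2.74 CPM in 005 cells (log2 fold change −0.97, SE 0.27, adjusted p = 0.0073), in groups that did not overlap. It was past the fold threshold with library totals (−1.10) and without TDEC replicate 1 (−1.002), TDEC replicate 3 (−1.03) or 005 replicate 1 (−1.07). Nos3, the endothelial nitric oxide synthase (log2 fold change −1.01, SE 0.49, adjusted p = 0.089; called without 005 replicate 2, at −1.34), and Eng, a TGF-beta co-receptor (log2 fold change 0.74, SE 0.39, adjusted p = 0.12), did not pass the test.

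The receptor Flt1 (VEGFR1), a high-affinity receptor and trap for VEGF, was the marker that rose most. It had 45.7, 41.6 and 39.6 CPM in TDECs, against 1.41, 1.73 and 2.08 CPM in 005 cells (log2 fold change 4.60, SE 0.14, adjusted p = 7.8e-11). All TDEC libraries were well above all 005 libraries, and the TDEC mean was 24.2% of the MBMEC level. Kdr (VEGFR2), the main signalling receptor for VEGF, had 4.55, 3.91 and 3.87 CPM in TDECs, against 1.18, 0.754 and 1.78 CPM in 005 cells (log2 fold change 1.72, SE 0.29, adjusted p = 2.3e-04), a rise that left it at 0.675% of the MBMEC level. Procr, the protein C receptor, had 5.20, 5.79 and 4.97 CPM in TDECs and 1.92, 2.49 and 1.56 CPM in 005 cells (1.41, SE 0.23, adjusted p = 1.5e-04), at 0.439% of the MBMEC level. S1pr1, a sphingosine-1-phosphate receptor (1.06), Cd93, a C-type lectin of endothelial and myeloid cells (1.05), and Mmrn2, an endothelial matrix glycoprotein (2.14), were also higher. The calls of S1pr1 and Cd93 were lost with scaling by library totals (0.93 and 0.92), and that of S1pr1 also without TDEC replicate 3 (0.88), 005 replicate 1 (0.91) or 005 replicate 2 (0.97).

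The other tested markers were called lower or not called. Tal1, a transcription factor of blood and endothelial progenitors, had 1.49, 2.38 and 0.842 CPM in TDECs, against 4.37, 5.20 and 4.45 CPM in 005 cells (log2 fold change −1.57, SE 0.30, adjusted p = 5.9e-04). Ramp2, the partner of the adrenomedullin receptor, had 4.92, 4.00 and 2.86 CPM in TDECs, against 11.5, 12 and 11.8 CPM in 005 cells (log2 fold change −1.59, SE 0.18, adjusted p = 9.1e-06). The groups did not overlap for either gene. Fli1 (−0.84), Prox1 (−0.38), Ets1 (−0.17) and Podxl (−0.17) were lower within the fold threshold, and Gata2 (0.85), Hhex (0.69) and Plvap (0.60) were higher within it. Ets1, Cd93, Plvap, Podxl and Hhex stood with Flt1 above 10% of the MBMEC level in TDECs, while Prox1, a lymphatic factor that neural progenitors also use, had no count in MBMECs. Leaving out TDEC replicate 2 brought Fli1 past the fold threshold (−1.10), and leaving out 005 replicate 1 did so for Gata2 (1.03) and Pecam1 (−1.09). With library totals, and without 005 replicate 1, 4 endothelial markers were called lower in place of 2, and the Pecam1 value with library totals was −1.03.

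**Figure D2:**
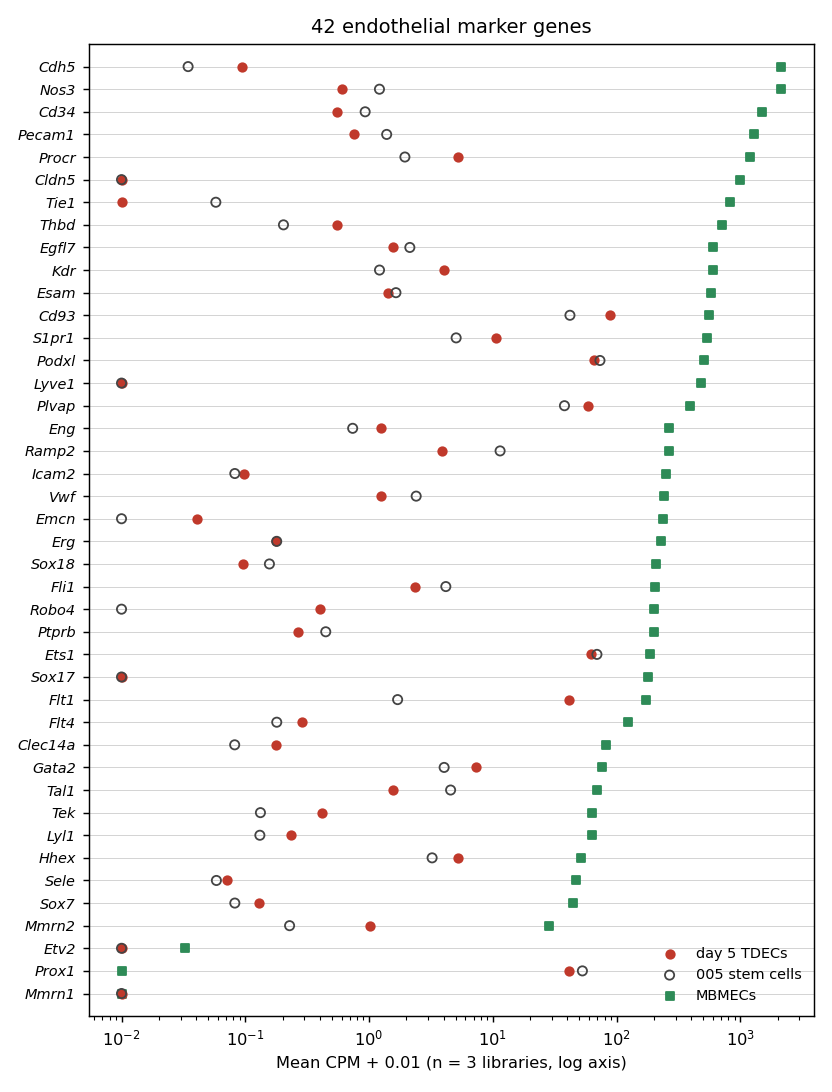
Mean CPM, with 0.01 added, on a log axis for the 42 endothelial markers in TDECs, 005 cells and MBMECs (n = 3 libraries each), scaled by TMM over all 15 libraries. For 28 markers the TDEC mean lies under 1% of the MBMEC mean, while Flt1, at 24.2%, is among the closest.

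Of 38 tested angiogenic ligands and receptors 19 were higher and 2 lower, or 4 lower with all 15 libraries in the fit, with a median of 1.06. Vegfa, the main ligand of Flt1 and Kdr, had 1942, 1906 and 1882 CPM in TDECs, against 221, 225 and 292 CPM in 005 cells (log2 fold change 2.96, SE 0.09, adjusted p = 9.0e-11). The TDEC libraries were alike and all far above the 005 libraries. Its relative Vegfb had 63.9, 62.3 and 61.3 CPM in TDECs and 60.9, 66.1 and 81.3 CPM in 005 cells (log2 fold change −0.15, SE 0.10, adjusted p = 0.19), and Pgf, placental growth factor, had 2.88, 3.66 and 2.61 CPM in TDECs and 2.30, 2.64 and 3.71 CPM in 005 cells (log2 fold change 0.08, SE 0.25, adjusted p = 0.79), both in overlapping groups. Angpt2, a ligand of Tek, had 61.8, 55.3 and 61.7 CPM in TDECs and 51.0, 54.0 and 78.2 CPM in 005 cells (log2 fold change −0.04, SE 0.14, adjusted p = 0.83), with overlapping groups. Mdk, the heparin-binding growth factor midkine, had 8.82, 9.10 and 8.92 CPM in TDECs, against 1.11, 0.377 and 1.11 CPM in 005 cells (log2 fold change 3.35, SE 0.27, adjusted p = 4.0e-07), whereas its relative Ptn, pleiotrophin, had 189, 189 and 179 CPM in TDECs, against 485, 483 and 399.6 CPM in 005 cells (log2 fold change −1.29, SE 0.08, adjusted p = 2.1e-08). The 2 midkine family genes thus moved in opposite directions, each with groups that did not overlap.

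The same list holds genes that steer axons and sprouting vessels. Ephb2, an ephrin receptor, had 112, 105 and 114 CPM in TDECs, against 13.1, 12.2 and 10.8 CPM in 005 cells (log2 fold change 3.20, SE 0.09, adjusted p = 2.6e-11). Its ligand gene Efnb2 (1.97), the netrin receptor gene Unc5b (2.05) and the semaphorin gene Sema3e (2.93) rose too, whereas Ephb4, the vein-type receptor of Efnb2 (−0.54), and the VEGF co-receptors Nrp1 (0.99) and Nrp2 (−0.25) were not called. Nrp1 was past the threshold without TDEC replicate 2 (1.001), 005 replicate 1 (1.067) or 005 replicate 2 (1.146), with upper quartile scaling (1.024), a minimum count of 50 (1.011), all 15 libraries (1.007) and the replicate block (1.016). Angptl6, an angiopoietin-like protein (3.09), Pdgfb, which recruits pericytes (2.38), Thbs1, an inhibitor of angiogenesis (2.20), Adm, adrenomedullin (1.78), and Fgf2, a fibroblast growth factor (1.13), were higher. The EGF receptor ligands Hbegf (1.59) and Areg (1.43) and the Notch ligand gene Jag1 (1.46) rose, while Fgf1 (−0.64) and Apln (0.15) were not called.

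Basement membrane genes were mostly raised. Of 24 tested, 14 were higher and 3 lower, with a median of 1.30. Lama4 and Lama5 encode the laminin chains typical of vessel walls. Lama4 had 838, 822 and 885 CPM in TDECs, against 63.7, 61.4 and 53.6 CPM in 005 cells (log2 fold change 3.83, SE 0.08, adjusted p = 5.3e-12), and Lama5 had 731, 716 and 719 CPM in TDECs, against 139.8, 137 and 159 CPM in 005 cells (log2 fold change 2.31, SE 0.07, adjusted p = 3.4e-11). Lama1, a laminin chain of early epithelia, had 83.3, 85.4 and 89.1 CPM in TDECs, against 2.59, 1.66 and 2.60 CPM in 005 cells (log2 fold change 5.23, SE 0.13, adjusted p = 1.0e-11). Libraries within each group were close for all 3 chains, and the groups were far apart. The partner chains Lamb1 (1.72), Lamb2 (1.87) and Lamc1 (1.6), which assemble with the alpha chains into trimers, were higher as well.

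The collagens of the basement membrane did not move as a block. Col4a1 and Col4a2 encode the common type IV network, and Col4a1 had 205, 229 and 241 CPM in TDECs and 233, 234 and 207 CPM in 005 cells (log2 fold change 0.00, SE 0.07, adjusted p = 0.99), with overlapping groups, while Col4a2 stood within the fold threshold (0.65). The rarer chains Col4a4 (2.90) and Col4a5 (1.34) and the endostatin precursor Col18a1 (1.25) were higher. The linkers Nid1 (1.18), Fbln2 (2.50) and Fbln5 (2.85) rose, the call of Nid1 being lost without TDEC replicate 1 (0.999). Fbln1, another fibulin, had 4.83, 3.83 and 4.80 CPM in TDECs, against 69.4, 76.9 and 81.0 CPM in 005 cells (log2 fold change −4.08, SE 0.11, adjusted p = 3.3e-11), and Smoc1, a calcium-binding matrix protein, had 26.8, 25.2 and 28.5 CPM in TDECs, against 119, 116 and 134 CPM in 005 cells (log2 fold change −2.20, SE 0.08, adjusted p = 3.4e-10). Both of these genes were thus low in all TDEC libraries. The proteoglycan genes Hspg2 (0.49) and Agrn (−0.08) and the network partner Nid2 (−0.72) were not called.

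Among 38 tested genes of the interstitial matrix 15 were higher and 5 lower, with a median of 0.49. The rises included enzymes that modify collagen: the prolyl hydroxylase subunits P4ha1 (2.86) and P4ha2 (3.82), the lysyl hydroxylase Plod2 (1.36), the collagen chaperone Serpinh1 (1.70) and the cross-linking enzyme Loxl2. Loxl2 had 124, 124 and 135 CPM in TDECs, against 8.74, 6.71 and 6.60 CPM in 005 cells (log2 fold change 4.12, SE 0.10, adjusted p = 1.4e-11). Fn1, fibronectin, had 511, 507 and 559 CPM in TDECs, against 115, 109 and 74.7 CPM in 005 cells (log2 fold change 2.40, SE 0.13, adjusted p = 7.8e-09). In both genes all TDEC libraries were several times above the highest 005 library. The metalloproteinase inhibitor Timp3 (2.20) and the metalloproteinase Mmp19 (1.64) rose. Col3a1, a fibrillar collagen of soft tissue, had 0.186, 0.255 and 0.421 CPM in TDECs, against 7.55, 7.39 and 7.34 CPM in 005 cells (log2 fold change −4.63, SE 0.29, adjusted p = 3.5e-08), and Eln, elastin, had 7.33, 7.91 and 8.25 CPM in TDECs, against 36.1, 35.4 and 51.6 CPM in 005 cells (log2 fold change −2.39, SE 0.16, adjusted p = 6.4e-08). Mmp2 (−1.5) and Mmp15 (−1.5) also fell. Col5a2 (−1.05) was called lower, but not without TDEC replicate 2 (−0.99) or 005 replicate 2 (−0.99). The glioma matrix genes Tnc (−0.16) and Vcan (−0.10) were within the fold threshold.

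Receptors for these matrices rose in part. Of 20 tested integrin subunits 8 were higher and none lower, with a median of 0.67. With a minimum count of 50 the higher count was 4. Without TDEC replicate 1 or 005 replicate 3, and with library totals, 1 subunit was lower. Itga3, which pairs with the beta-1 subunit to bind laminin, had 65.2, 68.9 and 76.6 CPM in TDECs, against 13.0, 12.7 and 16.1 CPM in 005 cells (log2 fold change 2.33, SE 0.11, adjusted p = 1.9e-09), and the laminin receptor subunit Itga7 rose by 1.70. Itgb5, of a vitronectin receptor (1.87), Itga2b, known from platelets (1.87), Itga11, of a collagen receptor (3.42), and Itgb4 (2.27) were higher. Itgb2, the beta subunit of leukocytes, had 2.23, 2.04 and 1.18 CPM in TDECs and no count in 005 cells, which made it at least 24.2-fold higher by the same floor, and with this bound in place of the fitted value the list median stayed at 0.67. The abundant Itgb1 (0.21), Itgav (0.58) and Itga6 (0.69) were within the fold threshold.

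Mural cells wrap vessels. Of 12 tested markers of them 5 (41.7%) were higher and none lower, against 13.1% and 10.4% of all genes tested. The median was 0.90, and the summed level was 691.6 to 710.1 CPM in TDECs and 571.5 to 615.9 CPM in 005 cells. With library totals 3 were higher and 1 lower. Pdgfrb, the receptor that pericytes use, had 3.90, 4.76 and 3.70 CPM in TDECs, against 0.370, 0.302 and 0.148 CPM in 005 cells (log2 fold change 3.87, SE 0.35, adjusted p = 1.0e-06). Tagln, an actin-binding protein of smooth muscle (1.74), and Myl9, a myosin light chain (1.04), rose at low levels, and the call of Myl9 was lost with library totals (0.91), without TDEC replicate 3 (0.89) and without 005 replicate 3 (0.84). Of the mesenchymal transcription factors and cadherins 3 of 11 tested (27.3%) were higher and 2 (18.2%) lower, or 1 lower without TDEC replicate 1 or 3. Foxc1, a factor of vascular mesenchyme, had 40.7, 37.3 and 36.1 CPM in TDECs, against 6.59, 7.92 and 8.31 CPM in 005 cells (log2 fold change 2.32, SE 0.11, adjusted p = 3.8e-09), and Cdh13, a cadherin without a cytoplasmic domain, rose by 1.95. Twist1 was called at 1.05 but not with library totals (0.92), without 005 replicate 1 (0.96) or without 005 replicate 2 (0.99). Zeb1 (−0.43), Zeb2 (0.04), Snai1 (0.18) and N-cadherin, Cdh2 (0.92), were not called, although Cdh2 was past the threshold without 005 replicate 1 (1.007) or 005 replicate 2 (1.006).

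**Figure D3:**
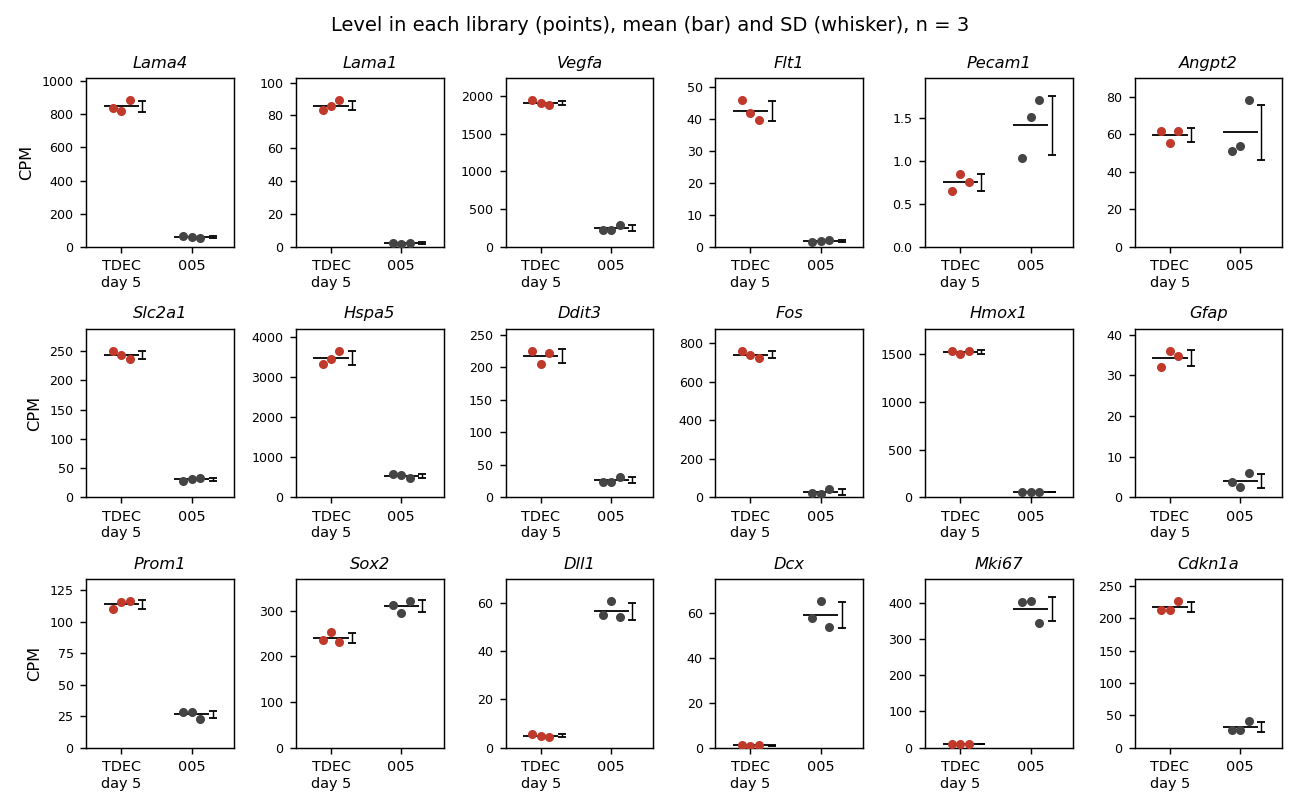
CPM (vertical axis, from 0) in each TDEC library (left) and each 005 library (right) for 18 genes, with a point for each library, a bar at the mean and a whisker of 1 SD (n = 3). Mki67, Dcx and Dll1 are low in all TDEC libraries and high in all 005 libraries, Flt1, Vegfa, Fos and Hmox1 show the opposite, and Angpt2 overlaps.

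Genes of neural and glioma stem cells fell, rose or stayed within the fold threshold. Of 28 tested 4 (14.3%) were higher and 9 (32.1%) lower, with a median of −0.35. Over all genes tested 13.1% were higher and 10.4% lower. Sox2, a factor that maintains neural stem cells, had 236, 253 and 231 CPM in TDECs, against 313, 295 and 321 CPM in 005 cells (log2 fold change −0.37, SE 0.06, adjusted p = 1.8e-04), and Nes, the filament nestin, had 613, 627 and 651 CPM in TDECs, against 1032, 1002 and 817 CPM in 005 cells (log2 fold change −0.59, SE 0.08, adjusted p = 3.1e-05). Both were lower in every TDEC library than in any 005 library and stayed within the fold threshold. Sox9 (−0.52), Msi1 (−0.27), Bmi1 (−0.34) and Pax6 (0.02) were likewise not called. Pou5f1, which encodes Oct3/4, a factor of pluripotent cells, had no count in the 6 libraries.

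Genes for Notch ligands of neural progenitors were among those that fell. Dll1 had 5.57, 4.76 and 4.63 CPM in TDECs, against 54.8, 60.6 and 54.3 CPM in 005 cells (log2 fold change −3.50, SE 0.11, adjusted p = 7.2e-11), and Dll3 fell by 3.23 on the log2 scale. No TDEC library came near the 005 range. The Notch target Hes5 (−2.79), the receptor of R-spondins Lgr5 (−1.90), the brain lipid-binding protein Fabp7 (−1.43) and the factors Pou3f2 (−1.39), Mycn (−1.08) and Nr2e1 (−1.01) were also lower. The call of Nr2e1 was lost with size factors of DESeq2 (−0.998), with upper quartile scaling (−0.98), with a minimum count of 50 (−0.99), with all 15 libraries (−0.99) and without TDEC replicate 2 (−0.88), 005 replicate 1 (−0.97) or 005 replicate 3 (−0.96). On the other side, Prom1 encodes CD133, a membrane protein used to sort glioma stem cells, and had 109.9, 116 and 116 CPM in TDECs, against 28.4, 28 and 23.1 CPM in 005 cells (log2 fold change 2.1, SE 0.08, adjusted p = 6.1e-10). Id4, an inhibitor of differentiation, had 32.9, 28.4 and 29.6 CPM in TDECs, against 2.59, 2.34 and 2.08 CPM in 005 cells (log2 fold change 3.69, SE 0.14, adjusted p = 4.0e-10). The Hedgehog effector Gli2 (1.84) and the quiescence-linked Hopx (1.5) also rose.

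Of 15 tested markers of the oligodendrocyte lineage none were higher and 9 lower, with a median of −1.26, or −0.59 with DESeq2 and −0.60 with all genes of at least 1 count. In these libraries the summed level ran from 1447 to 1463 CPM in TDECs and from 3018 to 3068 CPM in 005 cells. Olig1 and Olig2, which specify the lineage, had 239, 236 and 225 CPM and 225, 223 and 214 CPM in TDECs, against 842, 857 and 982 CPM and 546, 546 and 635 CPM in 005 cells (−1.94, SE 0.07, adjusted p = 1.9e-10 for Olig1 and −1.38, SE 0.07, adjusted p = 4.0e-09 for Olig2). Cspg4, the progenitor proteoglycan NG2, had 21.7, 18.1 and 16.2 CPM in TDECs, against 85.2, 79.9 and 111 CPM in 005 cells (log2 fold change −2.31, SE 0.14, adjusted p = 2.3e-08). All TDEC libraries were below all 005 libraries for the 3 genes. Lhfpl3 (−3.30), Gpr17, a receptor of committed progenitors (−5.12), Nkx2-2 (−1.26) and the progenitor receptor Pdgfra (−1.02) fell too, while the myelin gene Cnp (−0.06) did not pass the test. The call of Pdgfra was lost with upper quartile scaling (−0.99) and without TDEC replicate 2 (−0.98), 005 replicate 1 (−0.996) or 005 replicate 2 (−0.97).

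Astrocyte markers had 7 of 18 tested higher and 1 lower, a median of 0.82 and a summed level of 3855 to 4023 CPM in TDECs, against 2153 to 2236 CPM in 005 cells. Gfap, the filament of astrocytes, had 32.0, 36.0 and 34.8 CPM in TDECs, against 3.78, 2.49 and 5.93 CPM in 005 cells (log2 fold change 3.07, SE 0.20, adjusted p = 5.6e-08). Slc4a4, a bicarbonate transporter, had 79.9, 77.6 and 78.2 CPM in TDECs, against 11, 11 and 8.16 CPM in 005 cells (log2 fold change 2.97, SE 0.11, adjusted p = 2.0e-10). Apoe, the lipid carrier of glia, had 110.3, 109.7 and 109 CPM in TDECs, against 16.3, 14.6 and 20.8 CPM in 005 cells (log2 fold change 2.67, SE 0.11, adjusted p = 5.7e-10). In these genes no 005 library came near the TDEC range. The glutamate transporter Slc1a2 (1.81), glutamine synthetase, Glul (1.53), and the chaperone Clu (1.30) rose, whereas Aqp4 (0.25), Gja1 (−0.01) and Aldoc (−0.08) did not pass the test and S100b fell at a low level (−1.21), a call that DESeq2 did not make.

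Of 21 tested neuronal genes 10 were lower and 3 higher, with a median of −0.92 and a summed level of 1019 to 1044 CPM in TDECs and 1815 to 1981 CPM in 005 cells. With a minimum count of 50 the lower count was 6. Besides Dcx, the synaptic vesicle gene Syt1 had 4.92, 4.34 and 3.03 CPM in TDECs, against 34.3, 32.1 and 29.1 CPM in 005 cells (log2 fold change −2.96, SE 0.15, adjusted p = 6.7e-09), and Stmn3 had 3.71, 5.45 and 3.87 CPM in TDECs, against 27.5, 26.5 and 34.4 CPM in 005 cells (log2 fold change −2.76, SE 0.17, adjusted p = 2.5e-08). Rbfox3, the antigen NeuN of mature neurons, was near 0 in TDECs, with 0.186, 0 and 0.0842 CPM, and low in 005 cells, with 1.04, 1.13 and 1.19 CPM (log2 fold change −3.53, SE 0.61, adjusted p = 2.6e-04). The early neuronal genes Elavl4 (−1.77), Insm1 (−2.82) and Sox11 (−1.08) fell, while Tubb3 (−0.10) did not pass the test. Scg2, a granin of secretory granules, had 43.8, 41.9 and 43.6 CPM in TDECs, against 1.41, 1.06 and 1.34 CPM in 005 cells (log2 fold change 5.08, SE 0.14, adjusted p = 2.3e-11), and Gad1, which makes GABA, had 53.3, 55.9 and 53.6 CPM in TDECs, against 11.3, 8.52 and 13.6 CPM in 005 cells (log2 fold change 2.28, SE 0.13, adjusted p = 1.6e-08). These 2 genes, with the membrane fusion gene Snap25 (1.62), were the 3 that rose, each higher in all TDEC libraries.

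Of 18 markers of microglia, macrophages and leukocytes only 3 were tested, with 2 higher and none lower, 7 had no count in the 6 libraries, and the summed level was 36.4 to 41.4 CPM in TDECs and 13.0 to 14.4 CPM in 005 cells. Without TDEC replicate 1 or 005 replicate 1, and with DESeq2, only 1 was higher. In TDECs most of that sum came from Cd68, a lysosomal glycoprotein, with 25, 30.5 and 30.5 CPM in TDECs, against 4.22, 4.30 and 5.79 CPM in 005 cells (log2 fold change 2.59, SE 0.15, adjusted p = 1.7e-08). Csf1r, the receptor of microglia for colony-stimulating factor, had 9.47, 9.27 and 7.57 CPM in TDECs and 8.37, 7.69 and 6.97 CPM in 005 cells (log2 fold change 0.19, SE 0.15, adjusted p = 0.29), in overlapping groups.

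Genes of cell division fell together. Of 40 genes of mitosis and the G2/M transition all 40 were lower, with a median of −4.01, and their summed level was 488.8 to 504.3 CPM in TDECs, against 5457 to 6242 CPM in 005 cells. Mki67 had 11, 10.6 and 10.8 CPM in TDECs, against 401, 404 and 345 CPM in 005 cells (log2 fold change −5.15, SE 0.09, adjusted p = 2.0e-12). Kif11, the motor that separates spindle poles, had 4.64, 5.45 and 4.97 CPM in TDECs, against 177, 175 and 133 CPM in 005 cells (log2 fold change −5.00, SE 0.14, adjusted p = 2.8e-11). Aurkb, the kinase of the chromosomal passenger complex, had 2.79, 2.81 and 2.1 CPM in TDECs, against 76.3, 84.1 and 84.9 CPM in 005 cells (log2 fold change −4.99, SE 0.12, adjusted p = 9.8e-12). The TDEC libraries were alike in each and held a few percent of the 005 level. Cenpf (−5.07), Hmmr (−4.88), Plk1 (−4.82), the cyclin genes Ccnb1 (−4.46) and Ccna2 (−3.89) and the kinase gene Cdk1 (−3.34) fell as well. Smc4, a condensin subunit, fell least (−1.54).

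The DNA replication and G1/S list had 37 of 42 members lower and none higher, with a median of −2.51. The summed level was 805.3 to 832.5 CPM in TDECs, against 3639 to 4269 CPM in 005 cells. Rrm2 had 3.90, 5.53 and 3.62 CPM in TDECs, against 209, 219 and 174 CPM in 005 cells (log2 fold change −5.52, SE 0.14, adjusted p = 1.4e-11). Uhrf1, which keeps DNA methylation through replication, had 13.1, 13.4 and 12.5 CPM in TDECs, against 215, 215 and 181 CPM in 005 cells (log2 fold change −3.97, SE 0.09, adjusted p = 9.1e-12). The groups did not overlap for either gene, and 005 replicate 3 was the lowest of its group. The replicative helicase subunits fell unequally, with Mcm5 at −3.86, Mcm3 at −2.95, Mcm6 at −2.75, Mcm4 at −2.41, Mcm7 at −1.71 and Mcm2 at −1.45. Gins2, a helicase cofactor, had 47.8, 46.8 and 47.0 CPM in TDECs and 47.6, 49.9 and 50.7 CPM in 005 cells (log2 fold change −0.07, SE 0.07, adjusted p = 0.42), and Gins4 (−0.64), E2f1 (−0.73), Rfc5 (−0.78) and Orc6 (−0.89) were within the fold threshold, Orc6 being past it with library totals (−1.02).

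E2F-type sequences were counted in the promoters of the replication genes. The motif TTTCCCGC or TTTGGCGC, read on both strands of the 300 bases from 250 before to 50 after the start, was present for 13 of the 35 list genes with a RefSeq promoter (37.1%), against 1.8% of all 27025 genes and 3.37% of the 10586 tested genes with a promoter. Among all genes called lower the share was 7.22%. A match is a description of the letters and not of a bound site. The examples below, from RefSeq on GRCm38.p6, belong to genes with log2 fold changes of −3.86 (Cdc6), −3.86 (Mcm5), −3.43 (E2f7) and −2.75 (Mcm6). Capitals mark the motif or its reverse complement, and positions run 5′ to 3′ on the strand of the gene.
Cdc6, chr11:98907988-98908045, plus strand: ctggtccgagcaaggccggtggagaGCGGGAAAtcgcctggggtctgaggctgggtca
Mcm5, chr8:75109335-75109392, plus strand: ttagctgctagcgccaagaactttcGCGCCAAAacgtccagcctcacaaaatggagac
E2f7, chr10:110745216-110745273, plus strand: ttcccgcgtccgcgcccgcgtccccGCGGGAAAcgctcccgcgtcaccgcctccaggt
Mcm6, chr1:128359783-128359840, minus strand: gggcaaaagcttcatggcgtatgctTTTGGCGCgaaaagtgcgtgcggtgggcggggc

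For the mitotic genes the motif TTTGAA, part of the cell cycle homology region, was found in 24 of 33 promoters (72.7%), against 20.2% of all genes, 14% of tested genes and 23.9% of genes called lower. CCAAT was found in 24 of the same 33 (72.7%), against 41.1%, 43.1% and 51.1%.

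Inhibitors of cyclin-dependent kinases split by family member. Cdkn1a (p21) had 214, 212 and 226 CPM in TDECs, against 27.6, 27.0 and 40.8 CPM in 005 cells (log2 fold change 2.77, SE 0.13, adjusted p = 2.1e-09). Cdkn2b (p15) had 127, 119.9 and 119 CPM in TDECs, against 18.8, 19.8 and 23.4 CPM in 005 cells (log2 fold change 2.56, SE 0.09, adjusted p = 1.4e-10), and Cdkn2a, the neighbouring gene for p16 and p19ARF, had 712, 690.3 and 648 CPM in TDECs, against 201, 214 and 262 CPM in 005 cells (log2 fold change 1.6, SE 0.09, adjusted p = 1.1e-08). All TDEC libraries were above all 005 libraries. Their relatives Cdkn2c (−1.69), Cdkn2d (−1.6) and Cdkn1c (−1.13, or −0.88 and not called without TDEC replicate 1) fell, and Cdkn1b (0.69) was not called. The D-type cyclins, which start the cycle, stayed within the fold threshold, at −0.65 for Ccnd1, 0.82 for Ccnd2 and 0.02 for Ccnd3, as did Myc (−0.78), Cdk4 (−0.35) and Rb1 (−0.00). The pocket protein Rbl1 (−2.56) and the Max partner Mxd3 (−1.79) were lower. In the whole list of cyclins D, inhibitors and Myc genes 3 of 23 (13%) were higher and 6 (26.1%) lower. The shares over all genes tested were 13.1% and 10.4%.

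Of 22 tested p53 targets 4 (18.2%, against 13.1% of all genes tested) were higher and none lower, with a median of 0.52. They were Cdkn1a, the stress cytokine gene Gdf15 (4.27), the sestrin gene Sesn2 (2.37) and Gadd45a (2.31). The targets Mdm2 (0.49), Bax (0.46), Bbc3 (0.51) and Ccng1 (0.59) were higher within the fold threshold, and Zmat3 (−0.48) and Aen (−0.48) were lower within it.

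**Figure D4:**
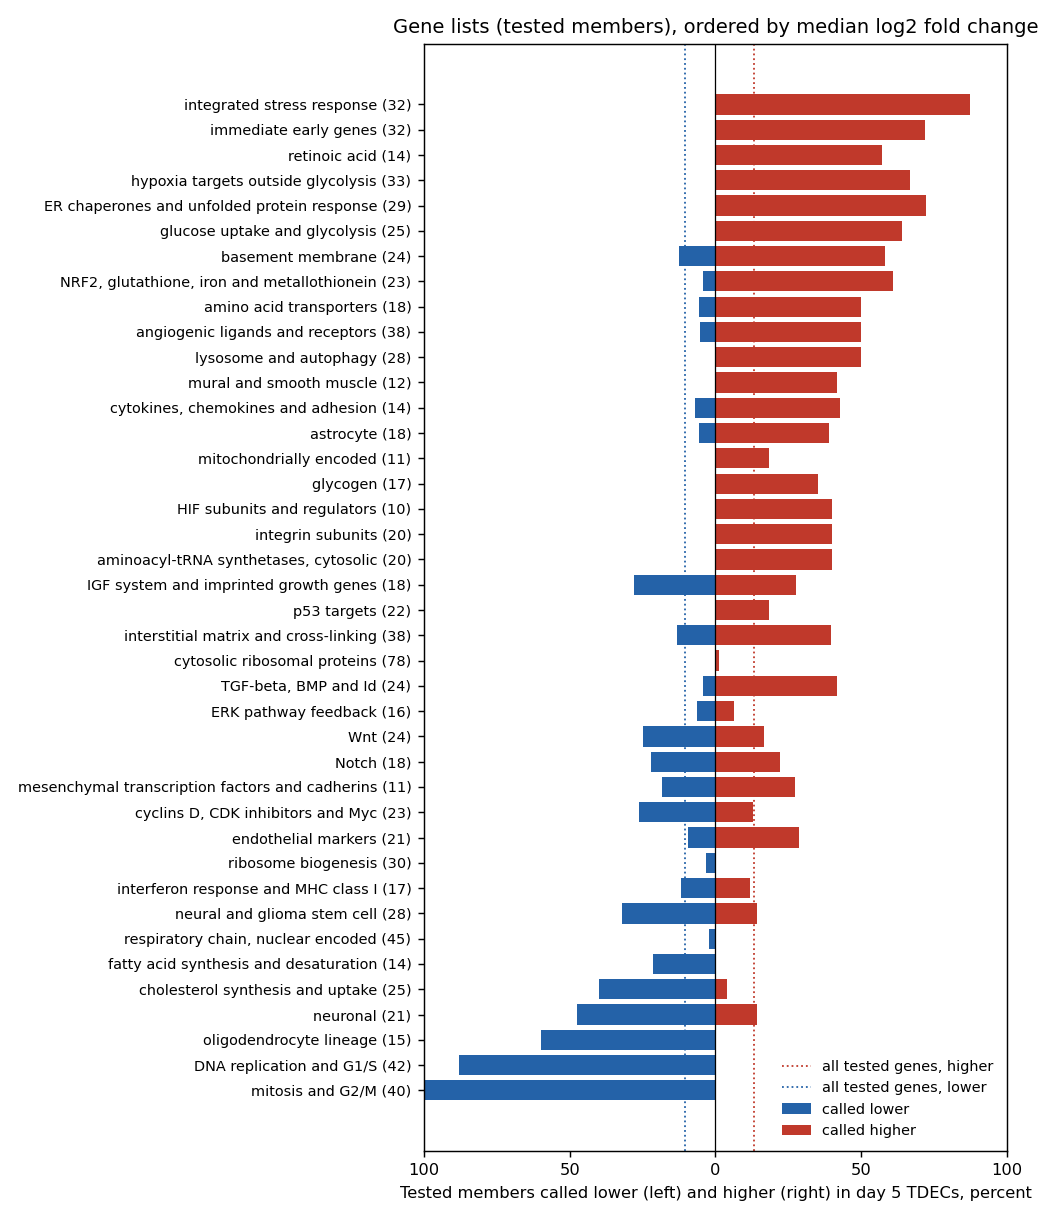
Percent of the tested members called higher and lower in TDECs for each gene list with at least 8 tested members, with dotted lines at 13.1% and 10.4%, the percent called higher and lower over all 15648 genes. The mitosis list reaches 40 of 40 lower, and the integrated stress response list 28 of 32 higher.

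Glycolysis genes rose at most steps. Of 25 genes of glucose uptake and glycolysis 16 were higher and none lower, with a median of 1.30 and a summed level of 18988 to 19453 CPM in TDECs, against 6769 to 7259 CPM in 005 cells. Slc2a1, the glucose transporter GLUT1, had 251, 244 and 237 CPM in TDECs, against 28.3, 30.8 and 33.5 CPM in 005 cells (log2 fold change 2.98, SE 0.07, adjusted p = 1.3e-11). Pfkfb3, which makes the activator of phosphofructokinase, had 498, 508 and 539.6 CPM in TDECs, against 69.4, 74.6 and 69.5 CPM in 005 cells (log2 fold change 2.86, SE 0.06, adjusted p = 7.3e-12). Gpi1, the isomerase of the second step, had 4199, 4178 and 4287 CPM in TDECs, against 562, 541 and 706 CPM in 005 cells (log2 fold change 2.81, SE 0.09, adjusted p = 7.6e-11). These genes were several times higher in every TDEC library. Of the hexokinases Hk1 (1.22) and Hk2 (1.30) were higher, and of the phosphofructokinases Pfkl (1.5) was, while Pfkm (−0.06) and Pfkp (0.30) were not called. Of later enzymes Aldoa (1.56), Tpi1 (1.37), Pgk1 (1.61), Pgam1 (1.32), Eno1 (1.10, or 0.97 and not called with library totals) and Ldha (1.23) were higher, and the pyruvate kinase gene Pkm (0.80) was not. Pdk1, a kinase that inhibits pyruvate dehydrogenase, rose by 2.33, while Ldhb (−0.59) was lower within the threshold. Gapdh averaged 48.0 CPM in TDECs and 37.3 CPM in 005 cells, and its counts are uncertain because near-identical copies may share its reads.

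Of 33 tested hypoxia targets outside glycolysis 22 were higher and none lower, with a median of 1.47. At an adjusted p under 0.05 of any fold all 33 were higher, as were 5068 of all 15648 genes tested. Ero1l, which forms disulfide bonds in the ER, had 1967, 1927 and 1955 CPM in TDECs, against 152, 155 and 193 CPM in 005 cells (log2 fold change 3.55, SE 0.09, adjusted p = 1.3e-11). Bnip3, a mitophagy receptor, had 387, 375 and 383 CPM in TDECs, against 50.7, 47.7 and 59.3 CPM in 005 cells (log2 fold change 2.86, SE 0.08, adjusted p = 3.1e-11). For both genes the groups were far apart. The carbonic anhydrase gene Car9 (4.26), the secreted Nrn1 (2.65), the stanniocalcin genes Stc1 (2.39) and Stc2 (2.27), the histone demethylase gene Kdm3a (1.08) and Ndrg1 (1.17) rose. With library totals the count was 19 and the call of Kdm3a was lost (0.95). Ddit4 (0.56), Hilpda (0.48) and Bhlhe40 (0.47) were within the fold threshold. The core motif ACGTG or GCGTG was found in 25 of the 26 genes of this list with a promoter (96.2%), which include Epo, not tested. It was found in 21 of 24 of the glycolysis genes (87.5%). The shares were 46.7% of all genes, 67.2% of tested genes and 62.3% of all genes called higher.

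The sensors of oxygen moved as well. Egln1 (1.89) and Egln3 (1.80), the prolyl hydroxylases that mark HIFs for breakdown, rose, and Egln2 (−0.10) did not pass the test. Among the HIF subunits Epas1 (HIF-2 alpha) had 65.8, 51.8 and 56.3 CPM in TDECs, against 17.8, 19.1 and 17.3 CPM in 005 cells (log2 fold change 1.68, SE 0.10, adjusted p = 2.6e-08), and Hif3a rose at a low level (3.79). Hif1a had 249.7, 256 and 252 CPM in TDECs and 313, 314 and 285 CPM in 005 cells (log2 fold change −0.27, SE 0.06, adjusted p = 0.0015), lower within the fold threshold. Arnt, the common partner, was at 0.60. Arnt2, its neural form, was at −0.99, and past the threshold with library totals (−1.12), with all genes of at least 1 count (−1.002) and without TDEC replicate 1 (−1.006) or 005 replicate 2 (−1.02). Over the 10 genes of HIF subunits and regulators 4 (40%) were higher and none lower, or 1 lower, Arnt2, under the settings just named.

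Of 17 tested glycogen genes 6 were higher and none lower, with a median of 0.75. Stbd1, which tethers glycogen to membranes, had 39.2, 38.8 and 38.5 CPM in TDECs, against 0.666, 1.06 and 0.816 CPM in 005 cells (log2 fold change 5.51, SE 0.15, adjusted p = 3.1e-11), and Gbe1, the branching enzyme, had 56.1, 53.6 and 56.6 CPM in TDECs, against 8.96, 6.86 and 4.67 CPM in 005 cells (log2 fold change 3.02, SE 0.16, adjusted p = 6.4e-09). Stbd1 was close to 1 CPM in all 005 libraries. The synthase Gys1 (1.68) and the phosphoglucomutase Pgm2 (2.11) were also higher, while the phosphorylases Pygl (0.75), Pygb (0.55) and Pygm (0.80, or 1.22 and called without 005 replicate 3) were not called.

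Mitochondrial genes divided by genome. Mitochondrially encoded genes held 3.48% to 3.6% of the counts in TDECs and 2.16% to 2.7% in 005 cells. Of 11 tested protein genes 2 were called higher, but the 2, mt-Co2 (1.88) and mt-Co3 (1.22), had low and scattered counts that near-identical nuclear copies may share. The abundant mt-Co1 had 17357, 17762 and 17346 CPM in TDECs, against 9043, 8795 and 12107 CPM in 005 cells (log2 fold change 0.81, SE 0.10, adjusted p = 1.2e-05), within the fold threshold, and 005 replicate 3 was the highest of its group. Of 45 tested nuclear genes of the respiratory chain 1 was called lower and none higher, with a median of −0.43. At an adjusted p under 0.05 of any fold 39 were lower and 2 higher, against 5163 lower and 5068 higher of all 15648. The called gene was Ndufa4 (−1.11), a subunit first assigned to complex I, and its call was lost without 005 replicate 3 (−0.997). With library totals in place of TMM 2 of these genes were lower, and the median over all genes tested was −0.14.

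**Figure D5:**
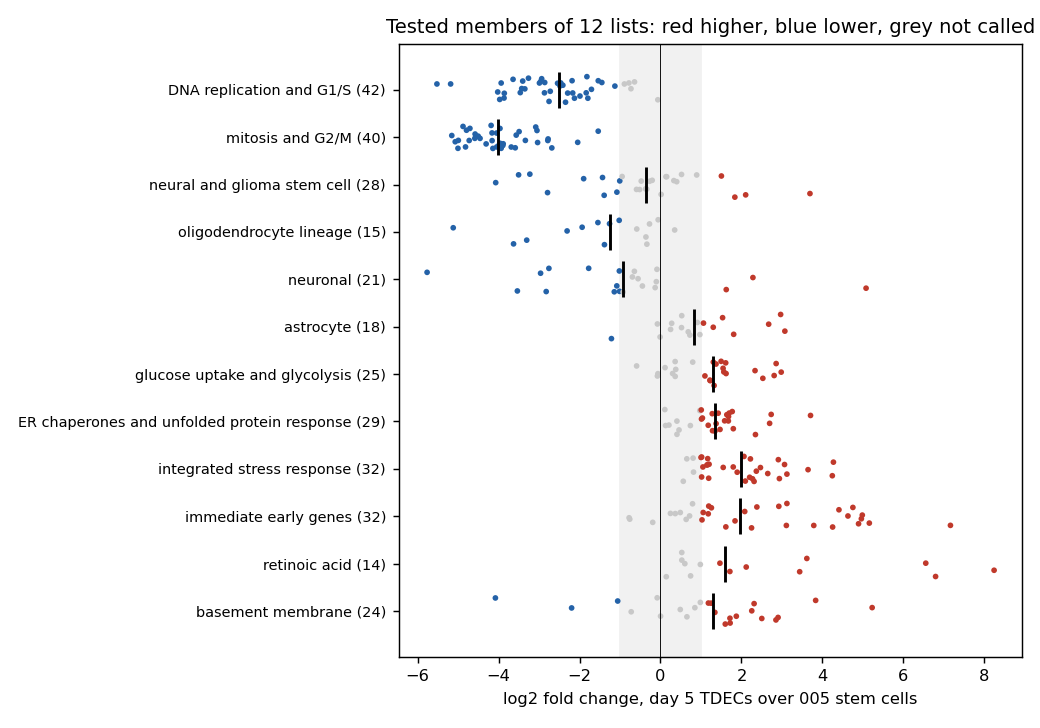
Log2 fold change of TDECs over 005 cells (horizontal axis) for each tested member of 12 gene lists, with a black bar at each list's median and a grey band within a fold change of 2. The medians run from −4.01 for mitosis to 1.98 for the integrated stress response, and the vertical spread within a list is arbitrary.

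Genes of the ER and the unfolded protein response were mostly higher. Chaperones of this group fold secreted proteins, and sensors in the ER membrane raise them when unfolded protein builds up. Of 29 tested 21 were higher and none lower, with a median of 1.35 and a summed level of 14706 to 15459 CPM in TDECs, against 4834 to 5387 CPM in 005 cells. Hspa5 (BiP), the main chaperone and regulator of the sensors, had 3322, 3452 and 3661 CPM in TDECs, against 581, 557 and 474 CPM in 005 cells (log2 fold change 2.69, SE 0.08, adjusted p = 3.3e-11). Dnajb9, its partner, had 105, 109 and 105 CPM in TDECs, against 17.6, 13.6 and 16.6 CPM in 005 cells (log2 fold change 2.73, SE 0.09, adjusted p = 1.3e-10). Calr, calreticulin, had 1334, 1388 and 1485 CPM in TDECs, against 426, 425 and 381 CPM in 005 cells (log2 fold change 1.77, SE 0.06, adjusted p = 2.3e-10). All TDEC libraries were above all 005 libraries in these genes, and 005 replicate 3 was the lowest for Hspa5 and Calr. Components that remove misfolded protein rose too, among them Derl3 (3.71), Herpud1 (2.34), Sel1l (1.70) and Syvn1 (1.04), whose call was lost with library totals (0.90) and without TDEC replicate 1 (0.96) or 005 replicate 1 (0.96). Of the sensors and their effectors Atf6 (1.80), Ern1 (1.47) and Xbp1 (1.64) were higher, and Eif2ak3, the kinase PERK (0.21), was not called. Counts per gene do not show whether Xbp1 RNA was spliced to its active form.

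The ER stress response element, CCAAT followed after any 9 bases by CCACG, was found on either strand in the promoters of 9 of the 24 genes of this list with a RefSeq promoter (37.5%), against 0.137% of all 27025 genes and 0.179% of tested genes. Among all genes called higher the share was 0.769%, which includes the called members of this list, such as Hspa5 and Calr. The windows below, from RefSeq on GRCm38.p6, show the element in capitals with the bases around it, as read on the strand of the gene, so that an element on the other strand begins with CGTGG and ends with ATTGG. They belong to Hspa5 (2.69), Calr (1.77), Dnajc3, a kinase inhibitor of the ER (1.28), Pdia6, a disulfide isomerase (1.18), and Creld2 (1.37). Canx, calnexin, holds the element as well and was within the fold threshold (0.74).
Hspa5, chr2:34772000-34772068, plus strand: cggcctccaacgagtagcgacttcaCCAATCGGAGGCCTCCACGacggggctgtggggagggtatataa
Calr, chr8:84847050-84847118, minus strand: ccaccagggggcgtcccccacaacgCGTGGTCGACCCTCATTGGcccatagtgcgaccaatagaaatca
Dnajc3, chr14:118937802-118937870, plus strand: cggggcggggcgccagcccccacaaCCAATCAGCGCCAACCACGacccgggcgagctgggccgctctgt
Pdia6, chr12:17266466-17266534, plus strand: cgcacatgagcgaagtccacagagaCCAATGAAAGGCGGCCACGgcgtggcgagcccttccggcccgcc
Creld2, chr15:88819495-88819563, plus strand: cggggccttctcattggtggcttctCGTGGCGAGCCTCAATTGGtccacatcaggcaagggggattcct

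The integrated stress response, in which the factor Atf4 raises genes for amino acid supply and stress control, had 28 of 32 genes higher and none lower. The median was 1.98, and all 32 were higher at an adjusted p under 0.05 of any fold, with groups that did not overlap. Over all 15648 genes tested, 5068 were higher at any fold, and 69.4% had groups that did not overlap. Ppp1r15a, the phosphatase subunit that restores translation, had 357, 347 and 357 CPM in TDECs, against 18, 19.5 and 18.5 CPM in 005 cells (log2 fold change 4.24, SE 0.07, adjusted p = 1.4e-12). Ddit3 (CHOP), a transcription factor of prolonged stress, had 226, 206 and 222 CPM in TDECs, against 23.0, 23.8 and 31.4 CPM in 005 cells (log2 fold change 3.06, SE 0.10, adjusted p = 1.5e-10). Atf4 itself had 562, 567 and 575 CPM in TDECs, against 242, 246 and 255 CPM in 005 cells (log2 fold change 1.20, SE 0.05, adjusted p = 1.3e-09). The stress regulators were thus many times higher in TDECs, and Atf4, which is mainly controlled at translation, by a smaller step. Nupr1 (3.64), Atf3 (3.12), Trib3 (2.94), the glutathione-degrading Chac1 (2.91) and the secreted Fgf21 (2.65) also rose. The serine and one-carbon enzymes Phgdh (1.05), Psph (1.19), Shmt2 (1.02), Mthfd2 (1.00) and Aldh1l2 (1.55) and the asparagine synthetase Asns (1.02) rose by smaller steps, and Psat1 (0.81) and Cbs (0.82) were not called. With library totals 24 genes of the list were higher, and the calls of Phgdh (0.92), Shmt2 (0.89), Mthfd2 (0.87) and Asns (0.89) were lost. Those of Shmt2 and Mthfd2 were also lost without TDEC replicate 3 (0.97 each), that of Shmt2 without 005 replicate 3 (0.98), those of Mthfd2 and Asns without 005 replicate 2 (0.97 and 0.99), and that of Mthfd2 without 005 replicate 1 (0.98), with DESeq2 (0.99) and with all genes of at least 1 count (0.99).

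The motif TGATGCAAT, to which ATF4 and C/EBP dimers are known to bind, was found in 3 of 28 promoters of this list (10.7%). It was found in 0.222% of all genes, 0.142% of tested genes and 0.615% of genes called higher. The last share includes the 3 list genes. The 3 windows, from RefSeq on GRCm38.p6, have the motif or its reverse complement, ATTGCATCA, in capitals. Their genes are Nupr1, Fgf21 and Pycr1, an enzyme of proline synthesis (1.17).
Nupr1, chr7:126625548-126625606, minus strand: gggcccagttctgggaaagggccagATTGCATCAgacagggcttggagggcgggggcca
Fgf21, chr7:45615597-45615655, minus strand: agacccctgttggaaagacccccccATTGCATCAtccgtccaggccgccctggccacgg
Pycr1, chr11:120643818-120643876, minus strand: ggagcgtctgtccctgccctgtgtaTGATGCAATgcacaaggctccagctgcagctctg

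Amino acid transporters and the enzymes that load transfer RNAs rose in part. Of 18 transporters 9 were higher and 1 lower, with a median of 1.11. Slc7a11, the cystine importer, had 235, 221 and 217 CPM in TDECs, against 38.6, 37.5 and 30.6 CPM in 005 cells (log2 fold change 2.66, SE 0.09, adjusted p = 1.0e-10), and its partner chain Slc3a2 had 1182, 1216 and 1203 CPM in TDECs, against 244, 233 and 296 CPM in 005 cells (log2 fold change 2.22, SE 0.08, adjusted p = 2.8e-10). In both, all TDEC libraries were several times above the highest 005 library. The leucine importer Slc7a5 (1.5), the cationic importer Slc7a1 (1.34) and Slc1a4 (1.91) rose, whereas Slc38a2 (0.47) was not called and Slc38a4 fell at a low level (−1.90). Of 20 cytosolic aminoacyl-tRNA synthetases 8 were higher and none lower, with a median of 0.67, and the count was 4 with library totals in place of TMM. Wars led with 440.4, 413 and 428 CPM in TDECs, against 78.8, 82.5 and 75.6 CPM in 005 cells (log2 fold change 2.44, SE 0.06, adjusted p = 1.4e-11), while Kars (−0.69) and Vars (−0.63) were lower within the fold threshold.

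Immediate early genes, which growth factors and stress switch on without new protein, had 23 of 32 tested members higher and none lower, with a median of 1.96 and a summed level of 5468 to 5587 CPM in TDECs, against 1295 to 1486 CPM in 005 cells. Fos had 759.7, 739 and 724 CPM in TDECs, against 20.6, 17.8 and 44.1 CPM in 005 cells (log2 fold change 4.75, SE 0.25, adjusted p = 6.8e-09). Egr1, a zinc finger factor, had 1177, 1252 and 1235 CPM in TDECs, against 54.9, 50.7 and 67.1 CPM in 005 cells (log2 fold change 4.41, SE 0.10, adjusted p = 7.1e-12), and its relative Egr3 had 25, 24.5 and 19.9 CPM in TDECs, against 1.04, 0.302 and 0.816 CPM in 005 cells (log2 fold change 4.98, SE 0.25, adjusted p = 4.0e-09). For Fos replicate 3 of 005 lay above the other 005 libraries, and every TDEC library was far above it. Egr2 (4.25), Egr4 (4.63), Klf4 (3.79), the prostaglandin synthase Ptgs2 (4.89) and the matrix genes Cyr61 (5.16) and Ctgf (4.96), which are also targets of YAP, rose as well. Jun (0.72), Maff (0.79) and Nr4a2 (−0.76) were within the fold threshold, and Fosl1 (−0.19) did not pass the test. The motifs TGACGTCA or TGAGTCA were found in 3 of 25 promoters of this list (12%), against 7.91% of all genes, 7.98% of tested genes and 9.84% of genes called higher. The CArG box, the site of serum response factor, was found in 2 of the 25 (8%), against 1.81%, 1.63% and 2.46%.

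Feedback genes of the ERK pathway, which many of the same signals raise, were mostly not called, as were 11972 of all 15648 genes tested. Of 16 genes 1 (6.25%) was higher and 1 (6.25%) lower, against 13.1% and 10.4% of all genes tested. The median was 0.21. Dusp6, the ERK phosphatase, had 847, 798 and 792 CPM in TDECs, against 478, 459.7 and 504 CPM in 005 cells (log2 fold change 0.76, SE 0.06, adjusted p = 1.6e-07), and Spry4, an inhibitor of receptor kinases, had 276, 273 and 267 CPM in TDECs, against 381, 374 and 417 CPM in 005 cells (log2 fold change −0.52, SE 0.06, adjusted p = 7.1e-06). Both differed in every library by less than the fold threshold, in opposite directions. The called genes were Errfi1, an inhibitor of EGF receptors (1.94), and Phlda1 (−1.01), whose call was lost with upper quartile scaling (−0.98), a minimum count of 50 (−0.99) or all 15 libraries in the fit (−0.999), and without TDEC replicate 3 (−0.99) or 005 replicate 3 (−0.95). Without 005 replicate 3 there were 2 higher.

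Genes of the NRF2 response, glutathione, iron and metal binding had 14 of 23 members higher and 1 lower, with a median of 1.16. Hmox1, which frees iron from heme, had 1535, 1499 and 1529 CPM in TDECs, against 53.6, 56.3 and 59.0 CPM in 005 cells (log2 fold change 4.76, SE 0.06, adjusted p = 3.5e-13). Mt1, a metallothionein, had 324, 296 and 245 CPM in TDECs, against 15.8, 14.2 and 25.4 CPM in 005 cells (log2 fold change 3.96, SE 0.18, adjusted p = 1.5e-09), and Mt3, the brain form, rose by 4.76. The TDEC libraries were far above 005 for all of them, with TDEC replicate 3 lowest for the metallothioneins. Ftl1, ferritin light chain (1.03), the transferrin receptor Tfrc (1.16), the glutathione enzyme Gclc (1.41), Srxn1 (1.92) and the factor Nfe2l2 (NRF2) itself (1.10) were higher. With library totals the count was 12 and the calls of Ftl1 (0.90) and Nfe2l2 (0.97) were lost. That of Ftl1 was also lost without 005 replicate 1 (0.99) or 005 replicate 2 (0.99), and that of Tfrc without 005 replicate 3 (0.98). The NRF2 targets Nqo1 (−0.08) and Txnrd1 (−0.01) did not pass the test, and Txn1, thioredoxin, had 127, 123 and 109.8 CPM in TDECs, against 293, 288 and 385 CPM in 005 cells (log2 fold change −1.43, SE 0.11, adjusted p = 1.6e-07).

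Of 25 tested genes of cholesterol synthesis and uptake 10 were lower and 1 higher, with a median of −0.81. At an adjusted p under 0.05 of any fold 22 were lower, as were 5163 of all 15648 genes tested. Hmgcs1, which feeds the mevalonate pathway, had 157, 159.8 and 158 CPM in TDECs, against 488, 485 and 396 CPM in 005 cells (log2 fold change −1.53, SE 0.08, adjusted p = 5.8e-09), and Idi1, an isomerase of the same pathway, had 22.2, 23.1 and 21.4 CPM in TDECs, against 92.9, 90.4 and 66.7 CPM in 005 cells (log2 fold change −1.91, SE 0.12, adjusted p = 4.0e-08). All TDEC libraries were below the lowest 005 library, replicate 3. The regulator Srebf2 (−0.88) was lower within the fold threshold, and past it with library totals (−1.01). The motif TCACNCCAC was found in 1 of 17 promoters (5.88%), against 1.44% of all genes, 1.46% of tested genes and 1.35% of genes called lower. The exporter Abca1 had 49.2, 52.1 and 54.3 CPM in TDECs, against 22.1, 23.2 and 17.9 CPM in 005 cells (log2 fold change 1.30, SE 0.10, adjusted p = 2.7e-07). Of 14 fatty acid genes 3 (21.4%) were lower and none higher, against 10.4% and 13.1% of all genes tested. They were Thrsp (−2.18), the elongase Elovl6 (−1.54) and the synthase Fasn (−1.07). With library totals in place of TMM, or without 005 replicate 3, the lower count was 5.

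Of 28 lysosomal genes 14 were higher and none lower, with a median of 0.94, or 8 higher with library totals. Ctsl, a protease of the lysosome, had 374, 375 and 423 CPM in TDECs, against 108, 113 and 103 CPM in 005 cells (log2 fold change 1.85, SE 0.07, adjusted p = 2.9e-10), and Lamp1, a lysosomal membrane protein, had 936, 924 and 947 CPM in TDECs, against 364, 366 and 368 CPM in 005 cells (log2 fold change 1.35, SE 0.05, adjusted p = 2.4e-10). The groups were well apart. Gpnmb, a glycoprotein of lysosomes under load, rose by 3.35, the autophagy adaptor Sqstm1 by 2.31 and the protease Ctsd by 1.55. The factors Tfeb (−0.35) and Tfe3 (0.64), which control many lysosomal genes, were not called.

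Cytosolic ribosomal protein genes shifted slightly upward, with a median of 0.48. At an adjusted p under 0.05 of any fold 69 of 78 were higher, against 5068 of all 15648 genes tested, and none lower. Their summed level was 55231 to 56627 CPM in TDECs and 38453 to 42872 CPM in 005 cells. The only call was Fau (1.10), a ribosomal protein made as a ubiquitin-like fusion, and it was lost with library totals (0.97), while leaving out TDEC replicate 1 gave 3 calls and leaving out 005 replicate 3 gave 2. Ribosome biogenesis genes leaned the other way, with a median of −0.30 and 1 call among 30, Nop10 (−1.19), of the RNA-modifying H/ACA particles, or 2 without 005 replicate 3. Many ribosomal protein genes have processed copies that may share their reads.

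Retinoic acid genes included some of the largest folds. Of 14 tested 8 were higher and none lower, with a median of 1.59. Rarb, a receptor that is itself a classical target, had 52.5, 53.6 and 57.5 CPM in TDECs, against 0.222, 0.754 and 0.742 CPM in 005 cells (log2 fold change 6.55, SE 0.19, adjusted p = 4.1e-11). Cyp26b1, which breaks retinoic acid down, had 5.57, 5.45 and 6.23 CPM in TDECs, against 0.666, 0.603 and 0.297 CPM in 005 cells (log2 fold change 3.44, SE 0.29, adjusted p = 5.2e-07). Aldh1a3, which makes it, had 137, 128 and 138 CPM in TDECs, against 50.1, 54.1 and 41.5 CPM in 005 cells (log2 fold change 1.47, SE 0.09, adjusted p = 2.7e-08). No 005 library came near the TDEC range in these genes. Cyp26a1 had 1.11, 1.11 and 1.09 CPM in TDECs and no count in 005 cells, at least 14.8-fold higher by the floor of 3 counts, and with this bound the median stayed at 1.59. Crabp2 (1.71) and Tgm2 (2.12) rose, and the receptors Rara (0.74), Rarg (0.98) and Rxra (0.53) were within the fold threshold. Rarg was past it without TDEC replicate 2 (1.015) or 005 replicate 3 (1.087), with upper quartile scaling (1.015), a minimum count of 50 (1.004) and all 15 libraries (1.0002).

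Notch genes had 4 of 18 tested (22.2%) higher and 4 (22.2%) lower, against 13.1% and 10.4% of all genes tested. The receptors Notch2, with 64.7, 66.2 and 66.6 CPM in TDECs, against 30.9, 24.6 and 22.5 CPM in 005 cells (log2 fold change 1.34, SE 0.10, adjusted p = 2.7e-07), and Notch4, an endothelial receptor (1.65), rose with the ligand Jag1 and the target Hey1 (1.09), while the ligands Dll1 and Dll3, the target Hes5 and the modifier Mfng (−2.90) fell. The call of Hey1 was lost with library totals (0.96). Notch1 (−0.39) and Rbpj (0.11), the DNA-binding effector, were not called, and Dll4, the ligand of sprouting endothelium, had 0.743, 0.766 and 0.842 CPM in TDECs and 0.222, 0.528 and 1.11 CPM in 005 cells and was not tested.

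Of 24 tested genes of TGF-beta, BMP and Id signalling 10 were higher and 1 lower, with a median of 0.45. Id1, a BMP target, had 73.5, 71.6 and 69.0 CPM in TDECs, against 9.25, 10.8 and 16.5 CPM in 005 cells (log2 fold change 2.55, SE 0.15, adjusted p = 2.4e-08). Smad3, which carries TGF-beta signals, had 165, 168 and 171 CPM in TDECs, against 44.0, 41.8 and 46.4 CPM in 005 cells (log2 fold change 1.93, SE 0.06, adjusted p = 1.3e-10). In both genes the groups were far apart. Bmp2 (2.70), Tgfb1 (2.27), Ltbp1, which stores latent TGF-beta in the matrix (2.26), and the inhibitory Smad6 (3.33) and Smad7 (1.42) rose. Bmp7 had 12.9, 14.1 and 13.7 CPM in TDECs, against 54.0, 55.8 and 60.9 CPM in 005 cells (log2 fold change −2.07, SE 0.09, adjusted p = 1.2e-09), lower in all TDEC libraries. The receptors Tgfbr1 (−0.59) and Tgfbr2 (−0.17) were not called.

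Of 24 tested Wnt genes 4 (16.7%) were higher and 6 (25%) lower, against 13.1% and 10.4% of all genes tested. The ligands moved apart, with Wnt5a at 81.5, 77.9 and 75.7 CPM in TDECs, against 35.5, 31.1 and 31.7 CPM in 005 cells (log2 fold change 1.26, SE 0.08, adjusted p = 2.8e-08), and Wnt7a at 6.68, 8.25 and 7.41 CPM in TDECs, against 29.5, 29.4 and 33.0 CPM in 005 cells (log2 fold change −2.04, SE 0.12, adjusted p = 1.7e-08). Wnt5a signals mostly without beta-catenin, and Wnt7a acts on brain vessels. The nuclear factor Lef1 (−1.63) and the receptors Fzd9 (−1.48) and Fzd2 (−1.08) fell, as did the secreted inhibitors Sfrp2 (−1.18) and Sfrp1 (−1.09), the call of Sfrp1 being lost without TDEC replicate 3 (−0.98). The inhibitors Wif1 (4.03) and Dkk3 (2.18) rose, and the target Axin2 (−0.25) was not called.

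The insulin-like growth factor system had 5 of 18 tested members (27.8%) higher and 5 (27.8%) lower, against 13.1% and 10.4% of all genes tested. Besides Igfbp3, the binding proteins Igfbp5 (1.89) and Igfbp4 (1.67) and the receptor Igf1r (1.31) rose, and Igfbp2 (0.31) was not called. Igf2, the fetal growth factor next to H19, had 2.41, 1.96 and 1.6 CPM in TDECs, against 4.44, 4.98 and 6.23 CPM in 005 cells (log2 fold change −1.39, SE 0.24, adjusted p = 2.5e-04). The imprinted genes Mest, with 109, 119.9 and 113 CPM in TDECs, against 703, 709 and 502 CPM in 005 cells (log2 fold change −2.48, SE 0.12, adjusted p = 2.4e-09), and Peg3 (−2.20) also fell. H19, Igf2, Mest and Peg3 were each lower in all TDEC libraries than in any 005 library, while Dlk1 rose at a low level (3.76).

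Interferon and MHC class I genes showed no common direction, with 2 of 17 tested higher and 2 lower (11.8% each). The shares over all genes tested were 13.1% and 10.4%. Without TDEC replicate 1, 4 members of the list were lower. H2-K1, a class I chain, had 75.9, 70.9 and 71.9 CPM in TDECs, against 12, 10.9 and 13.3 CPM in 005 cells (log2 fold change 2.60, SE 0.09, adjusted p = 1.9e-10), and its homolog H2-D1 had 7.33, 9.02 and 12 CPM in TDECs and 12.6, 10.8 and 15 CPM in 005 cells (log2 fold change −0.43, SE 0.18, adjusted p = 0.058). The class I genes are near-identical in part, so the split between them is uncertain. The peptide transporter gene Tap1 (−1.44) and the factor Irf1 (−1.16) fell. Ifitm3, a membrane protein that restricts viruses, was called higher (1.10) but not with library totals (0.97). Among 14 tested cytokines and adhesion genes 6 were higher and 1 lower, with a median of 0.85, and leaving out 1 library gave 0 to 3 lower. Lcn2 had 33.0, 32.9 and 34.3 CPM in TDECs, against 0.666, 0.452 and 0.816 CPM in 005 cells (log2 fold change 5.67, SE 0.17, adjusted p = 5.4e-11), and Cx3cl1, the ligand of the fractalkine receptor, had 139, 125 and 141 CPM in TDECs, against 15.2, 16.6 and 19 CPM in 005 cells (log2 fold change 2.99, SE 0.09, adjusted p = 6.0e-11). Both were high in all TDEC libraries. Csf1 (1.65) and Il34 (3.45), the 2 ligands of Csf1r, and Lif (2.02) rose, while the chemokine gene Ccl2 (−0.94) was lower within the fold threshold, and past it with library totals (−1.07) and without TDEC replicate 1 (−1.03) or 005 replicate 2 (−1.08).

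The shared names in these lists were counted in each, and over all 41 lists 955 of 1102 genes were tested.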

How the data were processed

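Poly(A) RNA was converted to strand-marked libraries and sequenced. The table the authors deposited gives raw counts for 49585 mouse genes, with no normalization. Per the submitters' processing notes, the tools were bcl2fastq 2.19 for base calls, Trimmomatic 0.38 for trimming, HISAT2 2.1.0 for alignment to mm10, and featureCounts 1.6.3 for counting. Strand use in counting, treatment of reads with several alignments and the annotation release are not given in the sources used here, so close paralogs and overlapping genes may share reads.

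Libraries were grouped by their sample labels. The 6 libraries were scaled by TMM, and filterByExpr (minimum count 10) left 15648 of the 26830 genes with a count. Groups were compared by the two-sided quasi-likelihood test of edgeR 4.0.16 in R 4.3.3, p-values being adjusted by Benjamini-Hochberg over all genes tested. Calls needed an adjusted p under 0.05 and an absolute log2 fold change above 1, and the median standard error (SE) was 0.11. For genes without a count in 005 cells a lower limit of the fold was computed by giving 005 3 counts in all, which covers counting error only. Depth is given as the total counts of each group. The same steps were run on simulated data in which few genes changed, up or down at random. No shift in library composition was built in, so that run does not bear on the choice of scaling. Some members of the lists are not reported here by name.

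The 41 gene lists, the members and the rule for naming genes were chosen with earlier results of these data known. Named were the 15 largest rises and falls among called genes whose groups did not overlap. These had at least 10 CPM in the higher group, and predicted genes were left out. Up to 5 called members per direction of each list with at least 5 CPM were named, with genes the paper names. Endothelial markers with at least 10 counts in a library and the 10 largest gains and losses of CPM were named too. Further members were named with their values as counterexamples or by role. Lists are described by counts and medians, with no test over a list. Promoters (RefSeq, GRCm38.p6) were searched on both strands. Motif shares over all, tested and called genes include the members of the list described. Alternatives were other scalings, filters, thresholds, DESeq2 1.42.0, all 15 libraries, a replicate block and leaving out each library. Values of the other 9 libraries were not used except for MBMEC levels and the fit over all libraries.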

Additional observations from a re-analysis of the deposited data

How the results depend on the processing

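Without the fold threshold 5068 genes were higher and 5163 lower, and a test against a fold of 2 (glmTreat) called 1268 and 1050, which are the alternatives that moved the counts of 2043 and 1633 by more than 1.5 times. Leaving out each library in turn gave 2053 to 2286 genes higher and 1645 to 1741 lower, with both upper ends without 005 replicate 3. Deviations from the group means of equally numbered libraries correlated at 0.00317, −0.0227 and −0.0151 over the genes tested. A pairing that touched few genes would not show in these values, so whether samples were paired is not settled. With the replicate block 2043 genes were higher and 1628 lower. With library totals in place of TMM 1743 were higher and 1999 lower, so that 46.6% of the calls were higher, against 55.6% with TMM, and the median log2 fold change over all genes was −0.14. Size factors of DESeq2 in edgeR gave 2062 and 1617, upper quartile scaling 2130 and 1559, DESeq2 itself 2204 and 1702, all 15 libraries in the fit 2264 and 1691, genes with at least 1 count 2563 and 1926, and a minimum count of 50, which tests 12720 genes, 1377 and 1230. Over the 41 lists 1087 of 1148 counts under the alternatives that keep the fold threshold and the test of no change were within 1.5 times of the value above, and 4 of the 61 others had at least 8 called genes: integrins 4 higher and neuronal genes 6 lower with a minimum count of 50, aminoacyl-tRNA synthetases 4 and lysosomal genes 8 higher with library totals. Without the fold threshold 69 ribosomal protein genes were higher and 39 nuclear genes of the respiratory chain lower. Of 242 tested genes named by rule, 224 kept their side of the threshold under each of the same alternatives that tested them (233 genes with a minimum count of 50), 18 did not, and none turned its direction while called. Over all 982 tested list members and genes named by rule, 56 of 462 calls were lost under at least 1 of these alternatives and 43 were gained. The causes were not tested. Depth limits genes of low level such as Pecam1, at 0.753 CPM in TDECs and 1.42 CPM in 005 cells, whose SE of 0.35 compares with a median of 0.11.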

Other observations

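Calls varied with level and base composition. With the genes in 5 equal bins by mean level, 25.4% were higher and 14.4% lower in the lowest bin, and 10% and 5.69% in the highest bin. From the lowest to the highest of 5 equal bins by GC content of the longest transcript, the share called higher was 7.53%, 11.2%, 13.4%, 16.4% and 16.8%, and the share called lower 12.7%, 12%, 9.58%, 9.1% and 8.65%. Across genes, which are not independent replicates, Spearman's rho of the log2 fold change was 0.128 with GC content, −0.0312 with exon length and −0.0261 with gene span, over the 15606 genes with a length.

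By chromosome, 7.28% of 522 tested genes on X were higher and 13.4% lower, with a median log2 fold change of −0.14. On the mitochondrial chromosome 10 of 20 genes were higher, among them 7 of 7 tested transfer RNA genes, with a median of 2.16. The libraries were of poly(A) RNA, and overlapping genes may share reads, so these counts need not measure mature transfer RNA. Of 434 tested lincRNA genes 15.7% were higher and 16.6% lower. Slc6a4, the serotonin transporter that sertraline blocks, had 0, 0.0851 and 0.0842 CPM in TDECs and 0.222, 0.0754 and 0 CPM in 005 cells, and was not tested.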
